A study of Mus musculus with 8 samples.

Results

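Growth factor ligands and their receptor tyrosine kinases were followed in mouse kidneys after cisplatin, a platinum chemotherapy drug that injures the kidney tubule. The members were taken by gene symbol, with no cutoff on a measured value, but the rule was written with earlier results of these data known. They are the protein-coding genes of the FGF, VEGF, PDGF, angiopoietin, ephrin, EGF, neuregulin, IGF and HGF systems whose row of the count table held a value for each of the 8 libraries. There were 57 of them among 35880 such rows, of which 12286 were protein-coding, and they comprise 27 ligands, 18 receptors and 12 other genes that the symbol pattern takes in, mainly IGF-binding proteins. Another 49 genes with matching symbols were in rows whose values could not be assigned to libraries and were not analysed here. They include the ligands Hbegf, Ereg, Btc, Igf1, Fgf2 and Angpt1 and the receptors Flt1, Igf1r, Erbb3, Erbb4, Pdgfra and Pdgfrb, so several ligands below are reported without their receptor.

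Kidney RNA was sequenced from 4 control and 4 cisplatin-treated wild-type mice, and the study's methods describe male C57/BL6J animals. Controls received saline and the treated mice received cisplatin, both by intraperitoneal injection, and kidneys were taken 72 h later. By their labels the controls are numbered 1, 2, 3 and 5 and the treated kidneys 1, 3, 4 and 6, and values are given in that order. Each library is a whole kidney sample, in which fewer cells of a type and less RNA per cell cannot be told apart.

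A receptor tyrosine kinase is a membrane protein that phosphorylates itself and its partners on tyrosine when a ligand brings its copies together, and it passes the signal on through the RAS and MAP kinase pathway and through PI3 kinase and AKT. In the kidney, EGF receptor and MET signalling are known for their part in tubule repair. VEGF made by podocytes and tubule cells maintains the endothelium of glomeruli and peritubular capillaries, angiopoietins act on the same endothelium through TEK, PDGFs act on pericytes and fibroblasts, and IGF-binding proteins hold IGFs outside the cell.

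The counts used summed to between 10953338 and 16701599 per library, over the rows with a value for every library, and are given as CPM (counts scaled to a common library size) after TMM normalization. At this depth 3 counts, taken as the smallest measurable level, were worth 0.136 to 0.266 CPM, which covers counting error only. The labelled tissue was checked against tubule markers. All 10 proximal tubule markers were measured, and their summed level was 56163 to 70018 CPM in the controls and 1261 to 13527 CPM after cisplatin, with 10 of 10 called lower. The libraries also stood apart in ways other than treatment. Kdm5d and Eif2s3y, both Y-linked, had at most 3 counts in cisplatin 1 and cisplatin 3 and at least 274 in the other 6 libraries, although all animals are described as male. Apart from this, earlier results of these data set control 5, cisplatin 4 and cisplatin 6 apart from the other libraries, which are called the first library set here. The labels name no batch. Where a member's call changes without cisplatin 1 and 3 or within the first set, both values are given.

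Cisplatin-treated kidneys had higher RNA of several growth factor ligands, among them the EGF receptor ligands Areg and Tgfa, Pdgfa and Angpt4, and lower RNA of Vegfa, Fgf1 and the binding proteins Igfbp4 and Igfbp5, while 1 receptor, Ephb1, was called. Genes were tested by edgeR's quasi-likelihood test over all 9141 genes that passed its expression filter, and a call needed both a p below 0.05 after adjustment and a log2 fold change of 1 or more in either direction. Of the 57 members, 42 passed the filter, 19 ligands, 15 receptors and 8 other genes. Of these, 11 were called higher and 5 lower after cisplatin, 38.1% in all, beside 34.9% of all genes tested, so the members as a whole were called about as often as other genes. The groups did not overlap in 22 of the 42, 10 with every treated kidney above every control and 12 below, 52.4% beside 46.3% of all genes (23.7% above and 22.5% below). Among the 19 ligands, 8 were called higher and 2 lower, beside 19.2% and 15.7% of all genes tested. Among the 15 receptors, 0 were called higher and 1 lower, 6.67% in all. At an unadjusted p under 0.05, 1 receptor was higher and 6 were lower, beside 2735 and 2347 of the 9141 genes tested. DESeq2 called 0 receptors higher and 1 lower, as edgeR did. The median log2 fold change was 0.68 for ligands and -0.57 for receptors, beside 0.08 for all genes tested. Setting Areg to its lower bound could not move the ligand median, since Areg stays above the median there, so this is no check of it. The difference between ligands and receptors was not tested. By the adjusted p alone, 8 ligands were higher and 4 lower and 1 receptor was higher and 4 lower, beside 26.4% higher and 22.6% lower of all genes. Areg, Angpt4, Efna3, Fgf12 and Igfbp2 reached the filter's cutoff in fewer than 4 controls. Areg and Igfbp2, at it in 0 controls, passed through the cisplatin libraries alone and had to be higher there. Angpt4 reached it in 1 control, Fgf12 in 2 and Efna3 in 3, like Fgf18, which was not called. The count of higher ligands and the ligand median are thus partly set by the filter.

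Scaling by total count alone moved the median of all genes by 0.57 on the log2 scale and the calls over all genes from 1754 higher and 1434 lower to 3174 and 803. Under it the ligands gave 8 higher and 1 lower, Vegfa dropping out at -0.95, and the receptors 2 higher, Ephb3 and Ephb6, and 1 lower, beside 34.7% and 8.78% of all genes. All fold changes here are relative to the TMM scale.

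**Figure D1:**
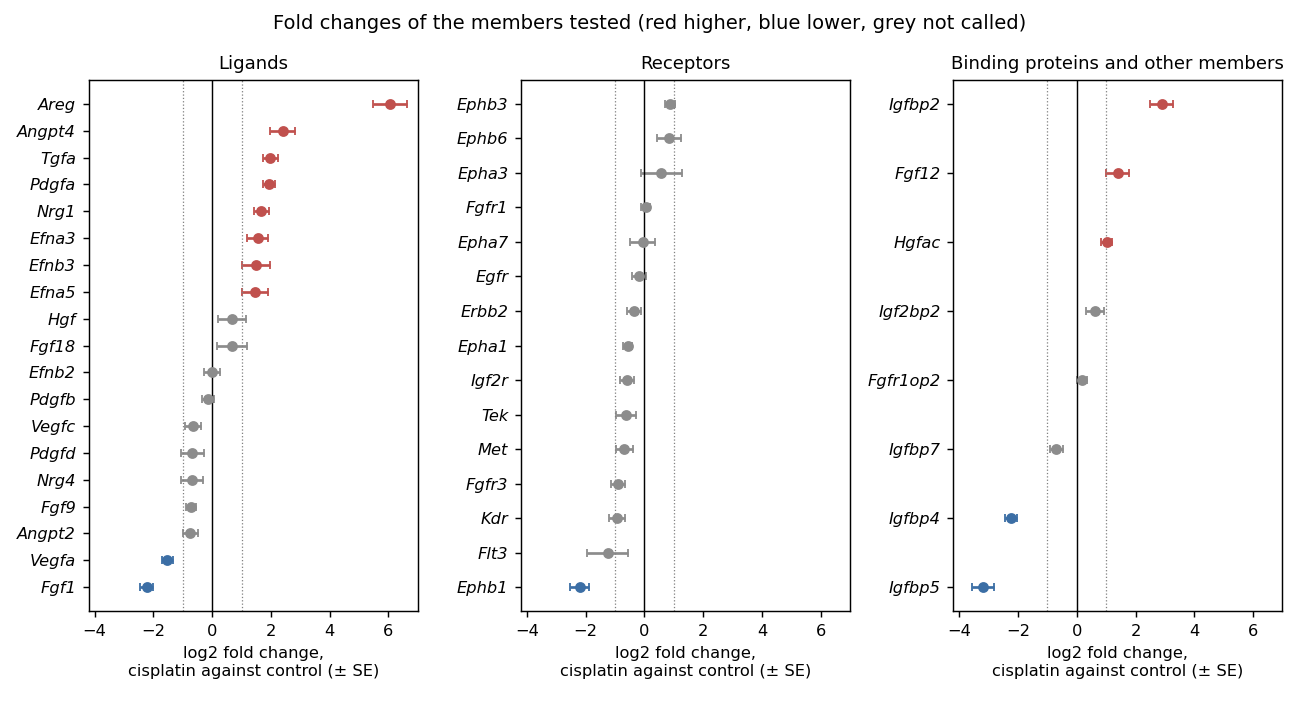
Log2 fold changes, cisplatin against control, of the 42 members tested, with standard errors as bars, in panels for 19 ligands, 15 receptors and 8 other members. Red points are called higher, blue points called lower and grey points not called, with dotted lines at -1 and 1. Areg lies farthest to the right, although its fitted value depends on how 0 counts are handled and is no bound, and Igfbp5 farthest to the left, and 14 of the 15 receptors are grey.

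The EGF receptor ligands Areg and Tgfa rose while their receptor was not called, and Egf, another ligand of it described further on, fell. Areg encodes amphiregulin, a membrane-anchored ligand released by shedding (ENSMUSG00000029378, GRCm38 chromosome 5 from 91139599 to 91148432, plus strand). It had 0, 0, 1 and 2 counts in control 1, 2, 3 and 5 and 110, 75, 56 and 62 counts in cisplatin 1, 3, 4 and 6. Areg was therefore at or under the measurable level in every control and was detected in every treated kidney. The treated kidneys averaged 4.54 ± 0.491 CPM (SD, n = 4), at least 17.1-fold above 3 counts in the controls (adjusted p = 3.60e-05). Tgfa encodes TGF-alpha, another ligand of the EGF receptor (ENSMUSG00000029999, chromosome 6 from 86195223 to 86275719, plus strand). Tgfa was at 12.3, 14.9, 7.89 and 8.96 CPM in the controls and at 37.0, 56.8, 37.2 and 42.5 CPM in the treated kidneys, in the same order. Every treated kidney lay above every control, and the mean was 3.94-fold higher (log2 fold change 1.98 ± 0.25, SE; adjusted p = 0.000173). Per kilobase of gene length, Tgfa averaged 6.68 ± 1.43 and Areg 3.73 ± 0.404 CPM per kilobase after cisplatin and Egfr 9.83 ± 3.59 (SD, n = 4), and the levels of Tgfa and Egfr overlapped in their spread.

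The sequences around the starts of both genes are printed because they are ligands of the same receptor that rose together. For comparison, that of Vegfa is printed too, a ligand that fell. Each is 300 bases from RefSeq on GRCm38.p6, 250 before to 50 after the annotated start, written 5′ to 3′ on the gene's strand, at chr5:91139349-91139648 for Areg, chr6:86194972-86195271 for Tgfa and chr17:46032328-46032627 (minus strand) for Vegfa. Capitals mark matches, on either strand, to the motifs searched.
Areg: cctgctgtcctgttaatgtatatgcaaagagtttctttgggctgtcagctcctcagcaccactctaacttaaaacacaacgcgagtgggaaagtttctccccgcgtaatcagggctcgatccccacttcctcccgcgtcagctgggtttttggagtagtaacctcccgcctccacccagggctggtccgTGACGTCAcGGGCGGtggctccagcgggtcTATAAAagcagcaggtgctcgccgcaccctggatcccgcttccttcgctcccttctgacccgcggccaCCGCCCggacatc
Tgfa: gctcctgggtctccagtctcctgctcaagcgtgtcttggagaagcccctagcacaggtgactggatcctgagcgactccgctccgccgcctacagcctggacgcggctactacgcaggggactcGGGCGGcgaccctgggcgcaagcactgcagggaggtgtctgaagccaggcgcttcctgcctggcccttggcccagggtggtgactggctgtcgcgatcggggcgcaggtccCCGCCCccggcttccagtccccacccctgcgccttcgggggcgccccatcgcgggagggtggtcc
Vegfa: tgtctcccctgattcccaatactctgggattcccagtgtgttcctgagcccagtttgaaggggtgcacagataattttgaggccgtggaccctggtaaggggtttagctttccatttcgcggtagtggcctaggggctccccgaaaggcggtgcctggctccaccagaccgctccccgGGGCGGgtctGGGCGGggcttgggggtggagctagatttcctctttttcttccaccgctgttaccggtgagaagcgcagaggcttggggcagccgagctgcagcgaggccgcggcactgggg

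The motifs were the cAMP response element TGACGTCA, the AP-1 site TGANTCA, the TATA box TATAAA and the GC box GGGCGG, and none of the matches printed overlap. In Areg the cAMP response element lies at bases 190 to 197, a GC box at 199 to 204, the TATA box at 220 to 225 and another GC box at 288 to 293, counted from the first base printed. Tgfa holds GC boxes at 125 to 130 and 236 to 241, and Vegfa at 179 to 184 and 189 to 194. Of 32851 promoters of the same length, 1.79% held the cAMP response element, 7.81% the AP-1 site, 13.6% the TATA box and 35.7% the GC box. Of the 57 members, 48 had a promoter entry, and Areg alone among them held a cAMP response element. These matches describe letters in the window and were not tested as sites.

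Nrg1 encodes neuregulin 1, a ligand of ERBB3 and ERBB4 (ENSMUSG00000062991, chromosome 8 from 31814551 to 32884029, minus strand). It was at 13.5, 24.9, 16.2 and 15.3 CPM in the controls and at 47.8, 78.0, 50.1 and 46.1 CPM after cisplatin. The groups did not overlap, and Nrg1 rose by 1.67 ± 0.25 on the log2 scale (SE; adjusted p = 0.000515). Exons of Gm43917 on the opposite strand share 118 of the 6490 exon bases of Tgfa, and those of Gm26578 share 482 of the 10351 of Nrg1. Nrg4, another neuregulin, was not called. It stood at 5.58 to 7.36 CPM in the controls, at 2.50 and 2.20 CPM in cisplatin 1 and 3 and at 6.66 and 5.47 CPM in cisplatin 4 and 6, so its lower level was in the first library set, where the log2 fold change was -1.64 (adjusted p = 0.000674), against -0.13 without those libraries. Exons of Fbxo22 on the opposite strand share 368 of the 6075 exon bases of Nrg4.

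Egfr encodes the EGF receptor (ENSMUSG00000020122, chromosome 11 from 16752203 to 16918158, plus strand) and was at 140, 124, 130 and 114 CPM in the controls. It was at 125 and 163 CPM in cisplatin 1 and 3 and at 79.7 and 77.6 CPM in cisplatin 4 and 6. The treated kidneys thus lay on both sides of the controls, and the log2 fold change was -0.19 ± 0.24 (SE; adjusted p = 0.537). Erbb2, which encodes the co-receptor that binds no ligand of its own, was at 93.2 to 168 CPM in the controls and 66.6 to 116 CPM after cisplatin, -0.36 ± 0.23 on the log2 scale (SE; adjusted p = 0.227). The sign of both depended on the scaling and the libraries. It was positive by total count (0.39 and 0.23) and within the first library set (0.08 and 0.04). Without cisplatin 1 and 3, Egfr was at -0.69, past the adjusted p at 0.00453 but under the fold threshold, and Erbb2 was at -0.63 (adjusted p = 0.0582).

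Among the PDGFs, which act on pericytes and fibroblasts, Pdgfa rose, and Pdgfb and Pdgfd were not called. Pdgfa (ENSMUSG00000025856, chromosome 5 from 138976014 to 138997370, minus strand) was at 12.4, 14.2, 13.8 and 21.3 CPM in the controls and at 52.3, 59.9, 62.1 and 62.3 CPM after cisplatin. The treated kidneys were close to each other and all above the controls, 3.83-fold higher by the mean (log2 fold change 1.94 ± 0.20, SE; adjusted p = 5.25e-05). Exons of 6330403L08Rik on the opposite strand share 813 of the 3119 exon bases of Pdgfa, and whether counting used the strand is not given in the sources used here. Pdgfb, the ligand made by endothelial cells, was at 50 to 61.1 CPM in the controls and 37.3 to 68.2 CPM after cisplatin (log2 fold change -0.14 ± 0.19, SE; adjusted p = 0.567). Pdgfd was tight in the controls, at 22.8 to 26.7 CPM, and spread out after cisplatin, at 31.8, 14.9, 6.95 and 9.83 CPM in cisplatin 1, 3, 4 and 6. Its log2 fold change of -0.67 ± 0.40 (SE) was not called with all libraries (adjusted p = 0.197), and was -1.59 without cisplatin 1 and 3 (adjusted p = 0.000406) and -0.16 within the first set (adjusted p = 0.649). The summed level of 5 measured mural cell and fibroblast markers was higher after cisplatin, as was Pdgfa. It was 111 to 296 CPM in the controls and 1604.5, 1412.1, 369 and 1046.8 CPM in cisplatin 1, 3, 4 and 6. Among the treated kidneys it was highest in cisplatin 1, where Pdgfa was lowest, and its part in the result was not tested. The collagen genes Col1a1, Col1a2 and Col3a1 of that list were called higher, Lum was not called, and the pericyte marker Cspg4 was lower but under the fold threshold (-0.61 ± 0.19, SE; adjusted p = 0.0209).

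The vascular ligand Vegfa fell, while its receptor Kdr was lower but under the fold threshold. Vegfa (ENSMUSG00000023951, chromosome 17 from 46016993 to 46032369, minus strand) encodes VEGF-A, the main growth factor of endothelial cells. It was at 559, 532, 685 and 606 CPM in the controls and at 168, 246, 177 and 241 CPM after cisplatin. All treated kidneys lay below all controls, 2.86-fold lower by the mean (log2 fold change -1.52 ± 0.19, SE; adjusted p = 0.00015). Vegfc, a ligand known for lymphatic vessels, was at 5.31 to 7.23 CPM in the controls and 2.78 to 5.09 CPM after cisplatin and was not called (-0.64 ± 0.27, SE; adjusted p = 0.0753). Kdr, which encodes VEGF receptor 2 (chromosome 5 from 75932827 to 75978458, minus strand), was at 164, 148, 171 and 104 CPM in the controls and at 86.6, 73.6, 43.3 and 103 CPM after cisplatin. The groups came closest at control 5 and cisplatin 6, without overlapping. Its log2 fold change was -0.94 ± 0.27 (SE; adjusted p = 0.0152), just under the fold threshold, and it was called without control 5 at -1.07, without cisplatin 1 at -1.01, without cisplatin 6 at -1.11 and without both cisplatin 1 and 3 at -1.01 and within the first set at -1.06.

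The angiopoietins differed among themselves. Angpt4 rose from 0.531, 1.04, 0.758 and 0.315 CPM in the controls to 4.55, 4.56, 2.20 and 2.78 CPM, with no overlap (ENSMUSG00000027460, chromosome 2 from 151911210 to 151945337, plus strand; log2 fold change 2.40 ± 0.43, SE; adjusted p = 0.00136). Its level was low throughout, with 4 to 13 counts in the controls and 30 to 100 after cisplatin. Angpt2, known as a context-dependent antagonist of TEK, was at 20.3, 33.3, 19.3 and 27.6 CPM in the controls and at 21.8, 11.5, 12.7 and 14.0 CPM after cisplatin. Its log2 fold change of -0.74 ± 0.26 (SE) passed the adjusted p, 0.04, but not the fold threshold. Tek, the angiopoietin receptor (chromosome 4 from 94739289 to 94874976, plus strand), was at 46.2 to 85.1 CPM in the controls and at 66.7, 53.1, 18.7 and 42.6 CPM in cisplatin 1, 3, 4 and 6 (-0.62 ± 0.35, SE; adjusted p = 0.162). Without cisplatin 1 and 3 it was called lower at -1.19 (adjusted p = 0.0245), and within the first set it was at -0.43 (adjusted p = 0.0269). Of 10 endothelial markers, 5 were measured. Their summed level was 406 to 556 CPM in the controls and 514, 456, 299 and 624 CPM in cisplatin 1, 3, 4 and 6. Cldn5 was called higher, and Cdh5, Plvap, Ehd3 and Robo4 were not called. Cisplatin 4 had the lowest Tek, the lowest Kdr and the lowest endothelial sum, and the part of the latter in the former was not tested.

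Among the FGFs, Fgf1 fell, and the FGF receptor genes tested, Fgfr1 and Fgfr3, were not called. Fgfr2, Fgfr4 and Fgfrl1 were not analysed here. Fgf1 (ENSMUSG00000036585, minus strand of chromosome 18) encodes acidic FGF, which binds all FGF receptors. It was at 675, 892, 438 and 660 CPM in the controls and at 158, 114, 150 and 144 CPM after cisplatin. The groups were far apart, and the mean was 4.71-fold lower (log2 fold change -2.23 ± 0.23, SE; adjusted p = 5.85e-05). Fgf9 was also lower in every treated kidney, at 14.8 to 20.1 against 26.3 to 31.2 CPM, though under the fold threshold (-0.73 ± 0.17, SE; adjusted p = 0.00516). Fgf18 was at 0.55 to 3.64 CPM in the controls and 2.06 to 4.51 CPM after cisplatin and was not called. Fgf12, which encodes an intracellular protein that binds sodium channels and is no receptor ligand, rose from between 0.620 and 1.14 CPM to 2.23, 4.12, 1.76 and 1.74 CPM (1.39 ± 0.39, SE; adjusted p = 0.0145), and without cisplatin 1 and 3 it was not called (0.90, adjusted p = 0.0677), against 1.65 within the first set (adjusted p = 0.0097).

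Fgfr1, a receptor of mesenchymal and tubule cells, was at 113 to 129 CPM in the controls and 105 to 138 CPM after cisplatin (0.04 ± 0.14 on the log2 scale, SE; adjusted p = 0.847). By total count alone it stood at 0.59, about the shift of all genes under that scaling. Fgfr3 was lower, at 94.0, 80.6, 92.1 and 121 CPM in the controls and 34.7, 41.9, 72.5 and 58.2 CPM after cisplatin, without overlap. It passed the adjusted p but not the fold threshold with all libraries (-0.90 ± 0.24, SE; adjusted p = 0.0113). Within the first library set it was called at -1.27 (adjusted p = 0.000137), as it was without cisplatin 4 at -1.12, and without cisplatin 1 and 3 it was at -0.56 (adjusted p = 0.036). Exons of G630022F23Rik on the opposite strand share 998 of the 7158 exon bases of Fgfr3.

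HGF and its receptor MET, a pair known for tubule regeneration, were not called, and the HGF activator gene lay at the threshold. Hgf itself was low, at 2.39, 4.71, 1.29 and 1.89 CPM in the controls and 6.32, 3.79, 1.90 and 4.36 CPM after cisplatin, and the groups overlapped (0.68 ± 0.47, SE; adjusted p = 0.258). Gm43489 on the same strand shares 484 of its 7186 exon bases. Met (ENSMUSG00000009376, chromosome 6 from 17463800 to 17573980, plus strand) was tight in the controls, at 264, 254, 266 and 241 CPM. After cisplatin it was at 210 and 227 CPM in cisplatin 1 and 3 and at 105 and 92.5 CPM in cisplatin 4 and 6. Every treated kidney lay below every control, by a small margin in the former pair and a large one in the latter. The log2 fold change was -0.69 ± 0.29 with all libraries (SE; adjusted p = 0.0702), -0.31 within the first set (adjusted p = 0.0374) and -1.37 without cisplatin 1 and 3 (adjusted p = 0.000174). Hgfac, which encodes the protease that activates HGF, was at 21.3, 19.6, 24.5 and 28.3 CPM in the controls and at 41.0, 43.2, 49.3 and 56.3 CPM after cisplatin. The groups did not overlap, and Hgfac was called by a narrow margin (1.02 ± 0.18, SE; adjusted p = 0.00116). The call was lost under 11 of 22 alternatives. Among them were DESeq2 at 0.99, the replicate block at 0.88, the library set as a covariate at 0.93, the first set alone at 0.89 and the fits without control 1, control 2, cisplatin 4 or cisplatin 6, where the lowest value was 0.92. Without cisplatin 1 and 3 it was at 1.18.

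Ephrins are membrane-bound ligands of EPH receptors, and they act between neighbouring cells. Of the ephrin genes tested, Efna3, Efna5 and Efnb3 were called higher and Efnb2 was not called. Of the EPH receptor genes tested, Ephb1 was called lower, and Ephb3, Ephb6, Epha1, Epha3 and Epha7 were not called. Efna3 was at 0.797, 1.75, 1.82 and 1.49 CPM in the controls and at 3.27, 4.95, 3.44 and 5.71 CPM after cisplatin, without overlap (chromosome 3 from 89313899 to 89322965, minus strand; log2 fold change 1.55 ± 0.35, SE; adjusted p = 0.00468). Exons of Gm15998 on the opposite strand share 344 of its 2434 exon bases. Efna5 showed the widest gap between the treated kidneys among the called ligands. It was at 10.1, 12, 14.9 and 8.33 CPM in the controls, at 44.5 and 51.9 CPM in cisplatin 1 and 3 and at 13.8 and 14.0 CPM in cisplatin 4 and 6, within the range of the controls. Its log2 fold change of 1.46 ± 0.45 (SE; adjusted p = 0.0228) thus rests on cisplatin 1 and 3. It was 1.91 within the first set (adjusted p = 5.82e-05) and 0.30 without those libraries (adjusted p = 0.339), and it was also not called without control 1, control 5, cisplatin 1 or cisplatin 3 alone. Efnb3 was at 2.21, 1.12, 1.52 and 4.40 CPM in the controls and at 4.73, 4.01, 9.08 and 8.33 CPM after cisplatin, overlapping at control 5 and cisplatin 3. It was called at 1.49 ± 0.47 (SE; adjusted p = 0.0238), and not without control 1, 2 or 3 or cisplatin 4 or 6. Efnb2, a ligand of arterial endothelium, was at 21.9 to 58.5 CPM in the controls and 41.0 to 56.6 CPM after cisplatin and was not called (adjusted p = 0.99).

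Among the EPH receptors, Ephb1 (ENSMUSG00000032537, chromosome 9 from 101922128 to 102354693, minus strand) was at 5.76, 6.30, 5.76 and 3.22 CPM in the controls and at 1.09, 1.15, 0.878 and 1.43 CPM after cisplatin. It was low in every treated kidney, without overlap, and 4.62-fold lower by the mean (log2 fold change -2.20 ± 0.32, SE; adjusted p = 0.000388). Ephb3 was the only tested receptor with every treated kidney above every control, at 18.7 to 26.6 against 11 to 13.4 CPM. Its log2 fold change of 0.88 ± 0.17 (SE; adjusted p = 0.00235) was under the fold threshold, and it was called higher without cisplatin 1 and 3, at 1.05 (adjusted p = 0.00107), against 0.66 within the first set. Epha1 was lower without overlap, at 24.3 to 32.4 against 36.7 to 45.6 CPM, and also under the fold threshold (-0.57 ± 0.15, SE; adjusted p = 0.0121). Ephb6, whose kinase domain is inactive, was at 2.15 to 4.17 CPM in the controls and at 7.19, 9.79, 2.71 and 5.87 CPM after cisplatin and was not called (0.84 ± 0.40, SE; adjusted p = 0.109), but it was called without cisplatin 4 at 1.09 and within the first library set at 1.26 (adjusted p = 0.0102), against 0.26 without cisplatin 1 and 3. Epha7 was at 2.91 to 5.22 CPM in the controls, at 5.78 and 5.33 CPM in cisplatin 1 and 3 and at 1.98 CPM in both cisplatin 4 and 6. The former pair thus lay above every control and the latter below, which was so for no other tested member and for 1.01% of all genes, and the log2 fold change of -0.06 averages opposite directions. Epha3 was at 0.55 to 2.15 CPM in the controls and 0.220 to 4.55 CPM after cisplatin and was not called (adjusted p = 0.53). Flt3, a receptor of blood progenitors and dendritic cells, was likewise low and not called, at 1.06 to 3.27 CPM in the controls and 0 to 1.27 CPM after cisplatin (-1.25 ± 0.70, SE; adjusted p = 0.167).

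Among the IGF-binding proteins Igfbp5 and Igfbp4 fell and Igfbp2 rose. Igfbp5 had the largest fall of the members tested, and Igfbp4 fell about as far as Fgf1 and Ephb1. IGFBPs bind IGFs in the extracellular space and set how much reaches the receptor. Igfbp5 (ENSMUSG00000026185, chromosome 1 from 72857932 to 72874884, minus strand) was at 1480.3, 1421.1, 1379.0 and 980 CPM in the controls and at 177, 203, 56.0 and 146 CPM after cisplatin. The groups were far apart, and the mean was 9.05-fold lower (log2 fold change -3.18 ± 0.38, SE; adjusted p = 0.000125). Igfbp4 (ENSMUSG00000017493, chromosome 11 from 99041244 to 99054392, plus strand) was at 1284.6, 1139.2, 1307.5 and 1720.9 CPM in the controls and at 282, 365, 271 and 238 CPM after cisplatin. It fell by 2.24 on the log2 scale, with a standard error of 0.21 (adjusted p = 3.31e-05), 4.72-fold by the means. Igfbp2, the neighbour of Igfbp5 on chromosome 1 (from 72824503 to 72852474, plus strand), went the other way. It rose from 0.708, 0.479, 0.531 and 0.786 CPM, 6 to 10 counts, to 3.82, 7.75, 3.95 and 3.17 CPM (2.89 ± 0.39, SE; adjusted p = 0.000284).

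Igfbp7, a secreted protein of vessels and injured tubules that binds IGFs weakly, had the highest level per length of all members. It was at 1209.9, 1268.5, 1197.2 and 1875.8 CPM in the controls and at 772, 915, 736 and 1024.3 CPM after cisplatin. The groups did not overlap, and the fold change was under the threshold (-0.69 ± 0.21, SE; adjusted p = 0.0218). Igf2r, which clears IGF2 and has no kinase domain, was at 194 to 236 CPM in the controls and at 141, 225, 112 and 109 CPM after cisplatin (-0.60 ± 0.23, SE; adjusted p = 0.058). Without cisplatin 1 and 3 it was called lower (adjusted p = 0.000703), and within the first set it was at -0.32 (adjusted p = 0.216). Igf2bp2 and Fgfr1op2, caught by the symbol pattern although they encode an RNA-binding protein and a cytoplasmic protein, were not called (0.62 and 0.18). The summed proximal, thick ascending limb and distal tubule markers were lower after cisplatin, as were Vegfa, Fgf1, Igfbp4 and Igfbp5. Beside the proximal tubule markers above, 2 measured thick ascending limb markers summed to 5044.0 to 8880.0 CPM in the controls and 315 to 3900.1 CPM after cisplatin, and 3 distal tubule markers to 2322.6 to 3731.2 and 211 to 693 CPM. In cisplatin 1, 3, 4 and 6 the proximal sum was 1685, 1261, 8630 and 13527 CPM. The thick ascending limb sum was 3900.1, 1961.5, 962 and 315 CPM there, and the distal sum 542, 693, 211 and 233 CPM. The ratio of cisplatin 1 and 3 to cisplatin 4 and 6 was 1.27 for Igfbp4, 1.89 for Igfbp5, 0.994 for Vegfa and 0.929 for Fgf1. The part of tubule cells in these falls was not tested. In the other direction, 6 markers of injured tubule cells summed to 924 to 1072.0 CPM in the controls and 12339 to 28578 CPM after cisplatin, with 5 called higher, and 4 collecting duct markers to 441 to 826 and 582 to 1138.8 CPM, with 2 called higher and 1 lower. The summed level of 4 measured podocyte markers was 390 to 782 CPM in the controls and 419 to 663 CPM after cisplatin, and that of 6 leukocyte markers 80.4 to 143 and 57.5 to 143 CPM. Of the latter Itgam, S100a8 and S100a9 were called higher (3.07, 3.34 and 2.50 on the log2 scale) and Ptprc lower (-1.44). S100a8 was under the filter's cutoff in every control and S100a9 in most. Adipocyte markers summed to 0.236 to 13.0 CPM in the controls and 11.9 to 66.1 CPM after cisplatin. Most of this rise was Cidec, called higher, with a mean of 1.73 CPM in the controls and 36.1 CPM after cisplatin. Adipoq (means of 0.769 and 0.856 CPM) and Plin1 (1.21 and 0.428 CPM) were below the filter and not tested. Adrenal cortex markers summed to at most 8.49 CPM in any library.

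**Figure D2:**
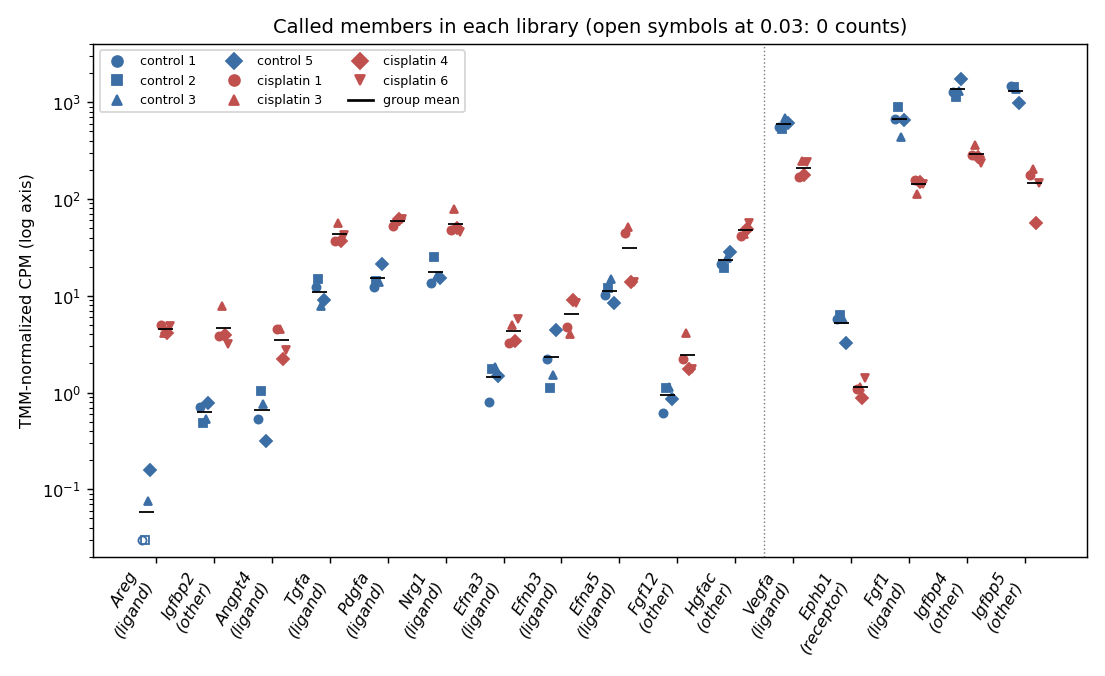
TMM-normalized CPM on a log axis of the 16 called members in each of the 8 libraries, controls in blue and cisplatin in red, with a symbol for each library and a black line at the group mean. Left of the dotted line are the 11 members called higher and right of it the 5 called lower. Only Efna5 and Efnb3 have treated kidneys within the range of the controls, and the 2 open symbols are controls with 0 counts of Areg.

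Levels are compared between members per kilobase of gene length. In the controls Igfbp7 averaged 1148 ± 270 CPM per kilobase, Igfbp4 309 ± 56.6, Igfbp5 219 ± 37.8, Fgf1 143 ± 39.9 and Vegfa 139 ± 15.6 (SD, n = 4 each), and Fgf1 and Vegfa did not differ beyond their spread. After cisplatin these were 713 ± 110, 65.4 ± 12.2, 24.2 ± 10.7, 30.5 ± 4.11 and 48.5 ± 9.61. Pdgfa reached 19.0 ± 1.51 CPM per kilobase after cisplatin, from 4.95 ± 1.28. Of the receptors, Met was highest in the controls at 33.4 ± 1.47 CPM per kilobase, followed by Igf2r at 23.5 ± 2.03 and Erbb2 at 22.9 ± 6.41, and these latter overlapped. Kdr at 16.3 ± 3.31, Tek at 14.8 ± 3.54, Fgfr3 at 13.5 ± 2.39, Fgfr1 at 12.2 ± 0.781, Egfr at 11.2 ± 0.960 and Epha1 at 10.8 ± 0.988 followed, each apart from its neighbour by less than their summed SDs. These levels rest on the gene lengths of the deposited table.

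The levels of several receptors divided the treated kidneys, as did those of many other genes. In 9 of the 15 receptors tested (60%) both cisplatin 1 and 3 lay above both cisplatin 4 and 6, and in 3 both lay below. They lay above in 31.6% of the ligands and 62.5% of the other members tested, and above in 36.2% and below in 36.7% of all genes tested. The levels in cisplatin 1 and 3 over those in cisplatin 4 and 6 had a ratio of 2.21 for Met, 1.96 for Tek, 1.83 for Egfr, 1.66 for Igf2r and 1.45 for Erbb2, and of 0.586 for Fgfr3. Among ligands the ratio was 3.46 for Efna5, 2.78 for Pdgfd, 1.83 for Angpt4 and 0.387 for Nrg4, whereas it was 1.01 for Areg, 1.18 for Tgfa, 0.902 for Pdgfa, 0.994 for Vegfa and 0.929 for Fgf1. Without cisplatin 1 and 3 the receptors gave 1 call higher, Ephb3, and 5 lower, Ephb1, Kdr, Met, Tek and Igf2r, beside 21.5% and 20.5% of all genes in that fit, 42% together. The ligands gave 7 higher and 3 lower there. Within the first set alone the receptors gave 1 higher, Ephb6, and 3 lower, Ephb1, Kdr and Fgfr3, beside 17.5% and 16.1% of all genes, 33.6% together, and the ligands 8 and 3. With 1 control, the other libraries were not tested on their own. Within the cisplatin group the library set and the absence of Y-linked counts cannot be told apart.

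**Figure D3:**
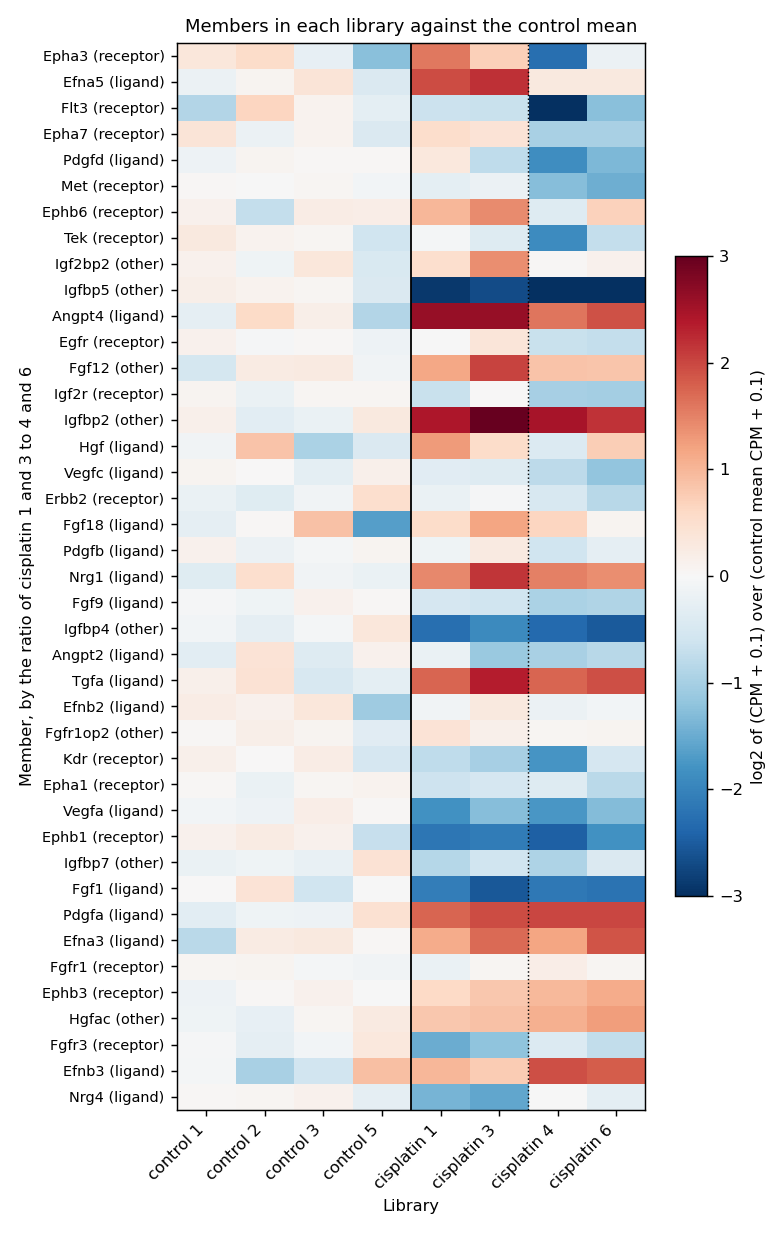
Each of 41 members tested (rows; Areg is left out, since its controls are at or near 0 counts) in each library (columns), as the log2 ratio of CPM to the mean of the controls with 0.1 CPM added to both, red higher and blue lower. Rows are ordered by the ratio of cisplatin 1 and 3 to cisplatin 4 and 6, and the dotted line parts these pairs. Pdgfa, Tgfa, Nrg1, Vegfa, Fgf1 and Igfbp4 have like colours in all 4 treated kidneys, while Efna5, Met and Pdgfd at the top and Nrg4 at the bottom do not.

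Of the members below the filter, 8 were ligands (Fgf3, Fgf4, Fgf5, Fgf6, Fgf15, Fgf20, Fgf23 and Nrg3), 3 receptors (Epha5, Epha8 and Epha10) and 4 other genes (Fgf14, Igfbpl1, Igfl3 and Igflr1). None of these 15 genes had more than 4 counts in any library, and 7 had 0 counts in all 8. Apart from Igfbpl1, with 4 counts in cisplatin 4, none exceeded 3 counts in a library. For Igflr1 the 0 says little, since 1268 of its 1270 exon bases are shared with Gm49396 on the same strand.

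Genes around these receptors were counted on lists drawn up by function, with earlier results of these data known. Of 110 signalling, feedback, shedding and co-receptor genes, 54 had usable rows and 53 were tested, and 13 were called higher and 5 lower, 24.5% and 9.43% beside 19.2% and 15.7% of all genes tested, with a median log2 fold change of 0.31 beside 0.08 for all genes. The largest rises were those of the immediate early genes Fosb (4.38 ± 0.70, SE; adjusted p = 0.000722) and Fos (2.58 ± 0.63, SE; adjusted p = 0.00769) and of the MAP kinase phosphatase gene Dusp8 (2.83 ± 0.24, SE; adjusted p = 1.86e-05). Dusp8 was at 5.27 to 9.65 CPM in the controls and 48.8 to 72.1 CPM after cisplatin. The largest falls were those of Kl, Etv1 and Hpn. Kl, which encodes Klotho, the kidney co-receptor of FGF23, was at 1773.4, 1584.3, 1998.9 and 1378.5 CPM in the controls and at 126, 139, 43.5 and 50.7 CPM after cisplatin (-4.23 ± 0.42, SE; adjusted p = 4.85e-05). Its ligand Fgf23 had 1 count in cisplatin 6 and 0 in the other libraries. Etv1, an ETS factor induced by FGF signalling, fell by 2.97 on the log2 scale (adjusted p = 0.000676), and Hpn, which encodes hepsin, a protease that activates HGF, by 1.98 (adjusted p = 0.000311). Rhbdf2, named after its values were seen, encodes iRhom2, a partner of the sheddase ADAM17 that releases Areg and Tgfa, and was at 26.9 to 33.2 CPM in the controls and 119 to 174 CPM after cisplatin (2.31 ± 0.17, SE; adjusted p = 7.58e-06). Adam17 itself was not called (-0.16 ± 0.22, SE; adjusted p = 0.58).

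Of 48 other ligands and receptors of the class, 21 had usable rows and 20 were tested, with 5 called higher and 5 lower, 25% each beside the same 19.2% and 15.7%. Egf, the EGF receptor ligand made by the distal tubule, stood in contrast to Areg and Tgfa. It was at 1913.2, 2215.7, 2325.9 and 2885.7 CPM in the controls and at 148, 75.1, 53.3 and 67.1 CPM after cisplatin (-4.77 ± 0.36, SE; adjusted p = 1.05e-05). Insrr and Gfra1, which encode an insulin receptor relative and the GDNF co-receptor, fell by 2.63 and 2.03 on the log2 scale. Pgf, placental growth factor, a ligand of FLT1, rose from 0.152 to 1.04 CPM in the controls to 2.36 to 7.32 CPM (3.08 ± 0.54, SE; adjusted p = 0.00121), opposite to Vegfa. Ros1, which encodes a receptor kinase, rose from 0.0798 to 0.758 CPM in the controls to 0.952 to 5.44 CPM (adjusted p = 0.00529), and Ptk7, a catalytically inactive relative, by 1.59 ± 0.15 on the log2 scale (SE; adjusted p = 3.79e-05). Ros1 was under the filter's cutoff in every control, so it passed through the cisplatin libraries alone and had to be higher there. Pgf was under the cutoff in most controls and passed mainly through the cisplatin libraries, so its rise is partly set by the filter.

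**Figure D4:**
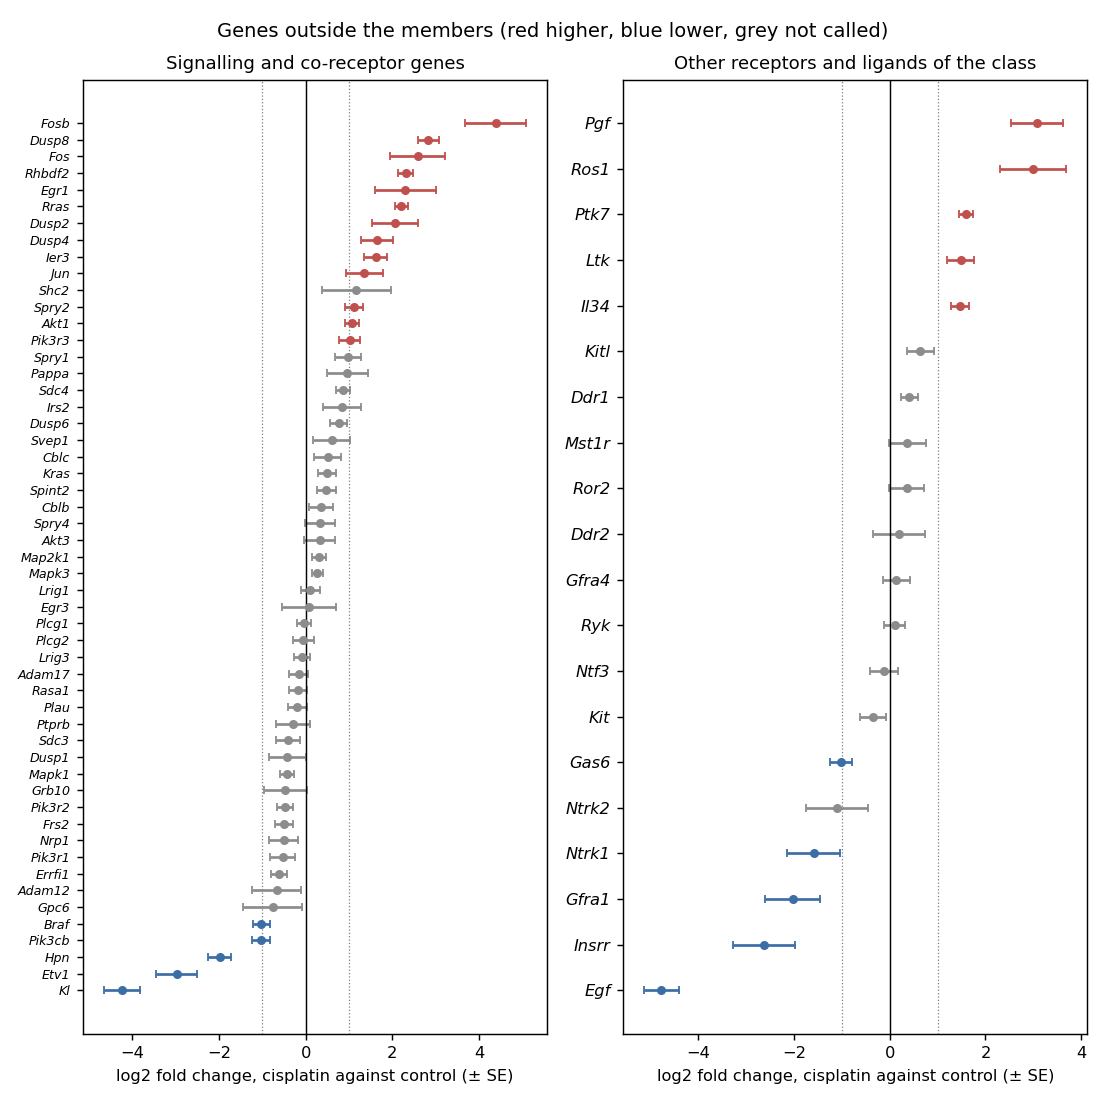
Log2 fold changes, cisplatin against control, with standard errors, of 53 signalling, feedback, shedding and co-receptor genes (left) and 20 other ligands and receptors of the class (right), red called higher, blue called lower and grey not called, with dotted lines at -1 and 1. Fosb and Dusp8 lie at the upper end on the left and Kl at the lower end, and Egf is lowest on the right.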

How the data were processed

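Kidney RNA from 4 control and 4 cisplatin libraries was sequenced, with the groups and replicate numbers taken from the labels. The submitters' processing notes name fastp, HISAT2 and GRCm38. The authors deposited raw counts of reads per gene, without normalization. The counting tool, annotation and strand setting are not given in the sources used here, and the labels name a VAHTS stranded kit where the paper names GEXSCOPE. Some further tested members overlap exons on the opposite strand. Gm26846 shares 152 of the 7002 exon bases of Ephb1, and Zyx 236 of the 3928 of Epha1. Polr2b shares 85 of the 1209 of Igfbp7, and Gm16159 164 of the 9875 of Fgfr1. Ints13 shares 57 of the 4619 of Fgfr1op2, and Mien1 9 of the 5210 of Erbb2. The deposited table held 53715 rows. The 35880 rows with 8 counts were used, and 17835 rows with 10 values, including 2 columns that the header does not name, were used in no step. The deposited gene length, of unknown derivation, served only for CPM per kilobase.

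The analysis used edgeR 4.0.16 under R 4.3.3 (default filter, TMM, quasi-likelihood test, Benjamini-Hochberg adjustment over 9141 genes). A standard error is the absolute log2 fold change over the square root of F. Where every control had at most 3 counts, the fold is a lower bound against 3 counts, 0.266 CPM. Floors cover counting error only. Standard errors and p-values take in the spread between these libraries, which are from separate mice. The step was tested on simulated counts. Alternatives were DESeq2 1.42.0 (with and without edgeR's filter), edgeR with DESeq2's size factors, with upper quartile or with total count, edgeR unfiltered or keeping genes with 10 counts or more in each library, glmTreat at a log2 fold change of 1, the adjusted p alone, removal of mitochondrially encoded and the 10 most abundant genes, each library left out, a replicate block, the library set as a covariate or the first set alone, and the fit without cisplatin 1 and 3.

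The members and lists were chosen with earlier results of these data known. Per-library values are given for called members, up to 6 per direction and role, and for both partners of ligand and receptor pairs, and from the other lists the 3 called genes per direction with the largest fold change, plus Kl and Egf. All 57 members were found in GENCODE M21, 54 with the same start, end and strand. Promoters are from RefSeq on GRCm38.p6.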

Additional observations from a re-analysis of the deposited data

Results flagged for a closer look

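In 5 of 84 groups of 4 libraries, 1 library lay far from the other 3 by Dixon's ratio at the 95% level, which chance gives in about 1 in 20 groups. Igfbp7 was at 1875.8 CPM in control 5, against 1197.2 to 1268.5 CPM in the other controls. Igf2r was at 194 CPM in control 2, against 230 to 236 CPM, and Ephb6 was at 2.15 CPM in the same library, against 3.90 to 4.17 CPM. Nrg1 was at 78.0 CPM in cisplatin 3, against 46.1 to 50.1 CPM in the other treated kidneys, and Igfbp2 was at 7.75 CPM there, against 3.17 to 3.95 CPM. Nrg1 and Igfbp2 stayed called higher without cisplatin 3.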

How the results depend on the processing

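Igfbp5, Igfbp4, Fgf1, Ephb1, Nrg1, Pdgfa, Tgfa, Angpt4, Igfbp2 and Areg were called in the same direction under every alternative that could test them. With at least 10 counts in every library, Areg, Angpt4 and others were not tested, and 5 ligands and 1 other member were called higher, with 3 and 3 of the other ligands and receptors of the class higher and lower. Against a log2 fold change of 1, 5 ligands and 1 other member were called higher, 6 and 3 signalling genes higher and lower and 2 of the other ligands and receptors lower. By total count, 1 ligand was called lower, 2 receptors higher, 22 and 3 signalling genes higher and lower and 3 of the other ligands and receptors lower. By upper quartile, 3 signalling genes were called lower. By the adjusted p alone, 4 ligands were lower and 1 and 4 receptors higher and lower. With the library set as a covariate, 2 receptors and 3 signalling genes were lower. In the first set alone, 3 ligands were lower, 1 and 3 receptors higher and lower, and 3 signalling genes and 3 of the other ligands and receptors lower. Without cisplatin 1 and 3, 3 ligands were lower, 1 and 5 receptors higher and lower, and 9 signalling genes lower.

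Replicate numbers 1 and 3 occur in both groups but the kidneys are from different mice, and the deviations of libraries with the same number correlated at 0.249 for number 1 and 0.279 for number 3, so the numbers were not taken as pairs. With the replicate block, 9 and 3 ligands, 2 and 3 receptors and 2 and 2 other members were called higher and lower, with 3 signalling genes and 3 of the other ligands and receptors lower. Over all 9141 genes, 1710 were called higher and 1404 lower with the block. In this fit Erbb2 was at 0.03, Egfr at 0.08, Pdgfb at 0.05, Epha7 at 0.24 and Fgfr1 at -0.07.

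Leaving out 1 library at a time gave 6 to 7 ligands higher and 2 to 3 lower, 0 to 1 receptors higher and 1 to 2 lower, 2 to 3 other members higher and 2 lower, 12 to 15 signalling genes higher and 3 to 5 lower, and 5 of the other ligands and receptors higher and 3 to 6 lower. Over all 9141 genes these fits called 1552 to 1849 higher and 1337 to 1515 lower.

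None of the members that changed sign was called with all libraries. By total count Erbb2 was at 0.23, Egfr at 0.39, Pdgfb at 0.43, Epha7 at 0.53 and Efnb2 at 0.55. In the first set they were at 0.04, 0.08, 0.07 and, for Epha7, 0.31, and Fgfr1 was at -0.15. With the library set as a covariate Epha7 was at 0.07 and Efnb2 at 0.23. Efnb2 was also at 0.05 by upper quartile, 0.01 with no filter and 0.02 with at least 10 counts. Epha3 was at -0.96 without cisplatin 1 and 3. With 1 library left out, Epha7 ran from -0.36 to 0.14, Efnb2 from -0.24 to 0.13, Fgfr1 from -0.03 to 0.10 and Epha3 from -0.14 to 0.94. The causes were not tested. Among 916 comparisons of a member's call across alternatives, 824 were the same, 33 gained the call, 27 lost it and 32 changed sign.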
